A study of Homo sapiens with 6 samples.

Results

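The collagen chain genes were taken from the count table as protein-coding genes whose symbol is COL, a type number, A and a chain number, which gave 44 genes of 19986 protein-coding genes and 58870 genes of all kinds. The cells were WM164, an established human melanoma line, and were labelled as overexpressing either green fluorescent protein (GFP, 3 libraries) or T-MGM (3 libraries). T-MGM joins MAFG, a small MAF transcription factor, and MITF, the master regulator of the melanocyte lineage, in a single linked protein, and the study's methods put the melanocyte isoform of MITF and MAFG behind the EF1α promoter of a lentiviral vector with blasticidin selection. No other cell line or time point was in the comparison, and the labels do not say whether replicates were separate cultures, so the p-values measure the spread between these libraries, which may be technical. Of the 44 chains, 23 were expressed, meaning 10 or more counts in at least 3 of the 6 libraries, which is 52.3% of the chains against 63.8% of all protein-coding genes.

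Collagens are trimers of α chains wound into a triple helix, and each chain gene encodes a single kind of α chain. Fibrillar types form the tensile fibrils of dermis, bone and cartilage, the FACIT types (fibril-associated collagens with interrupted triple helices) decorate those fibrils, type IV builds basement membranes, type VI forms beaded filaments around cells, and smaller classes anchor, span the membrane or form hexagonal networks. In skin the fibrillar collagens are made chiefly by fibroblasts.

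Total counts were 35057239 to 38738065 in the GFP libraries and 44577774 to 59250663 in the libraries labelled T-MGM. MAFG stood at 2458 ± 70.3 normalized counts with GFP and 2358 ± 34.9 with T-MGM, and MITF at 19161 ± 46.9 and 20269 ± 165 (SD, n = 3 each). MITF passed the test (DESeq2 adjusted p = 4.8e-07) and MAFG did not (adjusted p = 0.236). The counts of these genes were thus at most 1.08-fold higher in T-MGM at the upper 95% limit. Whether reads of the construct's own transcripts were counted under either gene is not given in the sources used here, so these values do not check the labels, on which every direction given here rests. Other melanocyte genes did set the groups apart: DCT, an enzyme of melanin synthesis, fell by 2.49 on the log2 scale, and MLANA and TYR fell by 0.68 and 0.35 (DESeq2 adjusted p at or under 0.05 for each). All 6 melanocyte markers examined (MITF, SOX10, PMEL, MLANA, TYR and DCT) were expressed, with a summed level of 964 to 977 TPM (abundance scaled for transcript length and depth) in GFP and 831 to 865 TPM in T-MGM libraries. In bulk RNA, fewer cells that express a gene and less RNA of that gene per cell cannot be told apart.

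The chains with the highest levels in WM164 cells were of type IX and type VI and not the fibrillar chains of skin collagen. COL9A3, a chain of the FACIT type IX collagen of cartilage, stood highest, at 96.4, 98.6 and 94.9 TPM in GFP against 105, 114 and 104 TPM in T-MGM (replicates 1 to 3 in that order, here and below). COL6A1, a chain of the beaded-filament collagen VI, followed at 37.9, 37.8 and 39.3 TPM in GFP against 50.02, 50.6 and 51.1 TPM in T-MGM. Both chains were higher in every T-MGM library than in any GFP library. COL9A3 alone made up 55.8% to 56.3% of the summed collagen TPM in GFP against 52.6% to 54.6% in T-MGM, and COL6A1 made up 21.5% to 23.1% and 24.1% to 25.8%. COL27A1, a fibrillar chain of developing cartilage, had 11.0, 11.2 and 10.01 TPM in GFP against 10.2, 11.2 and 11.3 TPM in T-MGM. COL19A1, a FACIT chain found near basement membranes, had 8.90, 10.3 and 9.15 TPM in GFP against 8.77, 8.91 and 8.68 TPM in T-MGM. For these 2 chains the groups overlapped in TPM. COL6A2, the second type VI chain, had 6.20, 5.93 and 5.69 TPM in GFP against 9.11, 8.78 and 9.08 TPM in T-MGM, without overlap. COL27A1 was higher than COL19A1 within every library. Across GFP libraries the ranges of these 2 chains overlapped, with mean TPM of 10.7 ± 0.643 and 9.46 ± 0.758.

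Below these 5, the next chains were COL11A2, COL18A1, COL6A3, COL5A3, COL9A2 and COL13A1, with mean levels over the 6 libraries in descending order from 2.44 TPM to 0.75 TPM, and 11 of the 44 chains reached 1 TPM in at least 3 libraries. The remaining 12 expressed chains (COL16A1, COL7A1, COL15A1, COL4A1, COL12A1, COL1A1, COL2A1, COL4A2, COL9A1, COL5A2, COL8A1 and COL25A1) were below that level in 4 or more libraries. The summed level of all 44 chains was 170 to 176 TPM in GFP against 198 to 210 TPM in T-MGM libraries. Among the TPM levels of expressed protein-coding genes, COL9A3 stood at percentile 94.97, COL6A1 at percentile 87.3 and the fibrillar COL1A1 at percentile 4.79.

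**Figure D1:**
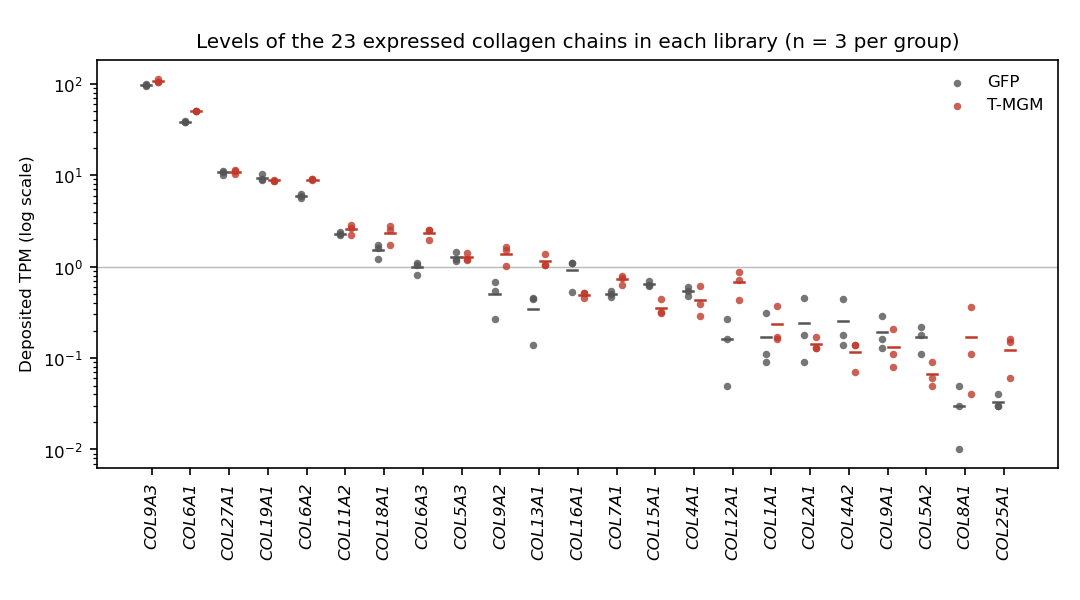
Deposited TPM (log axis) of the 23 expressed collagen chains, ordered by mean level, in the 3 GFP libraries (grey) and the 3 libraries labelled T-MGM (red); points are libraries, short bars are group means and the grey line marks 1 TPM. COL9A3 and COL6A1 stand above all other chains, COL9A3, COL6A1, COL6A2, COL6A3, COL9A2, COL12A1, COL13A1, COL7A1 and COL25A1 show red points above every grey point, and COL15A1, COL16A1 and COL5A2 show the reverse.

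The comparison of T-MGM with GFP asks what the tethered dimer does to transcript levels. Among the 23 expressed chains, 12 were higher and 1 was lower in T-MGM at an adjusted p at or under 0.05 (DESeq2, Benjamini-Hochberg over 19135 tested genes), and 10 did not pass. The 6 chains that also exceeded a 2-fold change, all higher, were COL8A1, COL12A1, COL13A1, COL9A2, COL1A1 and COL6A3. Over all tested genes 19.2% passed as higher and 19.2% as lower, 4.63% were called at over 2-fold, and 3.26% were called higher. The median log2 fold change was 0.39 over the expressed chains and -0.00 over all tested genes, and the background includes genes of every level. COL8A1 and COL25A1 counted as expressed through T-MGM libraries alone; of the other 21 chains, 11 were higher, 1 was lower and 5 were called. The GFP and T-MGM libraries were fully separated in normalized counts for 16 of the 23 chains (14 higher and 2 lower in T-MGM), against 46.8% of all tested genes. COL8A1 is among those 14, and the median of the expressed chains includes both COL8A1 and COL25A1.

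The expressed chains are rich in G and C, with a median transcript GC content of 61.5%. With a correction for GC content and length, 11 expressed chains were higher, 1 was lower and 6 were called, and their median log2 fold change was 0.23 against -0.0004 over all tested genes. COL18A1 and COL27A1 no longer passed under that correction, and COL19A1 passed as higher.

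**Figure D2:**
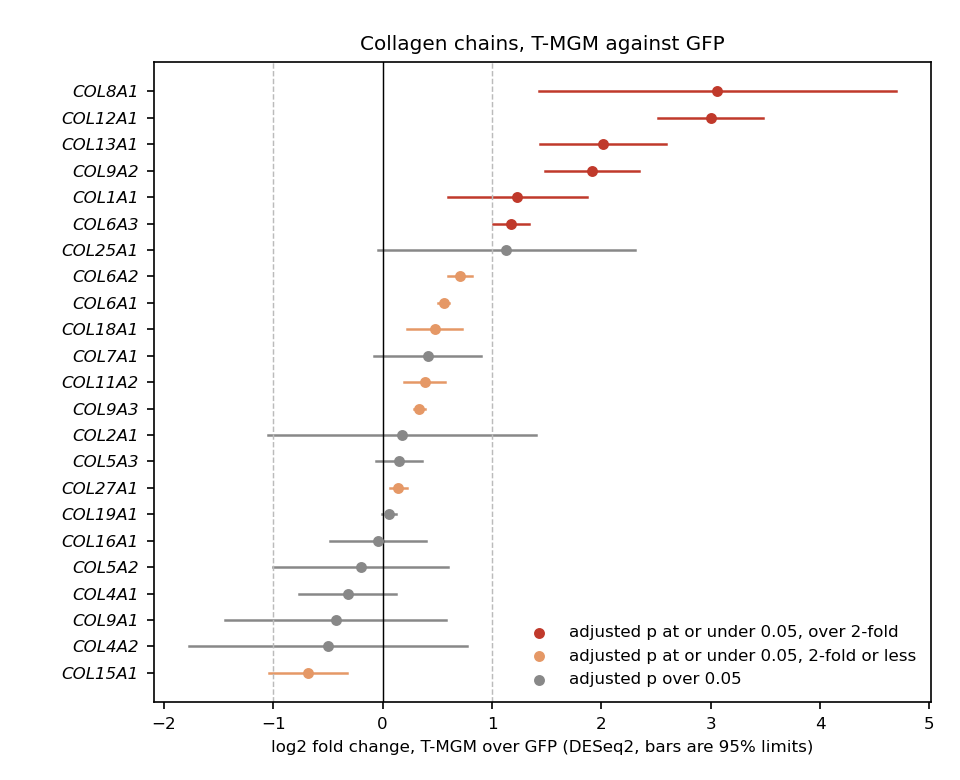
Log2 fold change of T-MGM over GFP for the 23 expressed chains with 95% limits (DESeq2, n = 3 libraries per group); red marks an adjusted p at or under 0.05 with more than 2-fold change, orange an adjusted p at or under 0.05 with 2-fold or less, grey an adjusted p over 0.05, and dashed lines mark 2-fold. The red points lie from 1.18 for COL6A3 to 3.06 for COL8A1, and COL15A1 at -0.68 is the passing point left of zero.

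All 3 measured chains of the classical type VI trimer rose. This collagen is secreted as tetramers that assemble end to end into beaded microfilaments near the cell surface. COL6A1 (ENSG00000142156.14; chromosome 21, 45981770 to 46005050, plus strand, GRCh38) had 5544, 5446 and 5308 normalized counts in GFP against 7891, 8138 and 7945 in T-MGM. COL6A2 (ENSG00000142173.15; chromosome 21, 46098112 to 46132848, plus strand) had 995, 972 and 903 in GFP against 1544, 1560.1 and 1590.3 in T-MGM. COL6A3 (ENSG00000163359.15; chromosome 2, 237324003 to 237414328, minus strand), the longest chain of the trimer, had 428, 401 and 346 in GFP against 904, 879 and 871 in T-MGM. The T-MGM libraries lay above the GFP libraries for each chain, with log2 fold changes of 0.56 (95% limits 0.51 to 0.61; DESeq2 adjusted p = 4.5e-110) for COL6A1, 0.71 (0.60 to 0.82; 1.43e-36) for COL6A2 and 1.18 (1.01 to 1.34; 1.14e-43) for COL6A3. With the GC and length correction these log2 fold changes were 0.40, 0.54 and 1.12. COL6A1, COL6A2 and COL18A1 lie on the same arm of chromosome 21, where 65 to 67 other genes within 10 Mb had a median log2 fold change of 0.01. The alternative type VI chains COL6A5 and COL6A6 had at most 3 counts in every library.

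The 3 type VI chains had fold changes of different size, and their ratios within a library compare them directly. Within each library, COL6A3 counts were 7.72%, 7.36% and 6.52% of COL6A1 counts in GFP against 11.5%, 10.8% and 11.0% in T-MGM, a 1.54-fold higher ratio. Against COL6A2, COL6A3 was 40.8% ± 2.37 in GFP against 56.6% ± 1.92 in T-MGM (SD, n = 3). COL6A2 against COL6A1 moved less, from 17.6% ± 0.511 to 19.6% ± 0.423. None of these ratios overlapped between groups, and each had an exact permutation p of 0.1 (2-sided; 0.16 adjusted over 8 chain pairs), the smallest that 3 against 3 libraries can give. Ratios of counts within a library do not depend on scaling between libraries, and a count ratio is not a ratio of molecules because the chains differ in length. In TPM the COL6A3 to COL6A1 ratio was 2.57% in GFP against 4.65% in T-MGM.

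**Figure D3:**
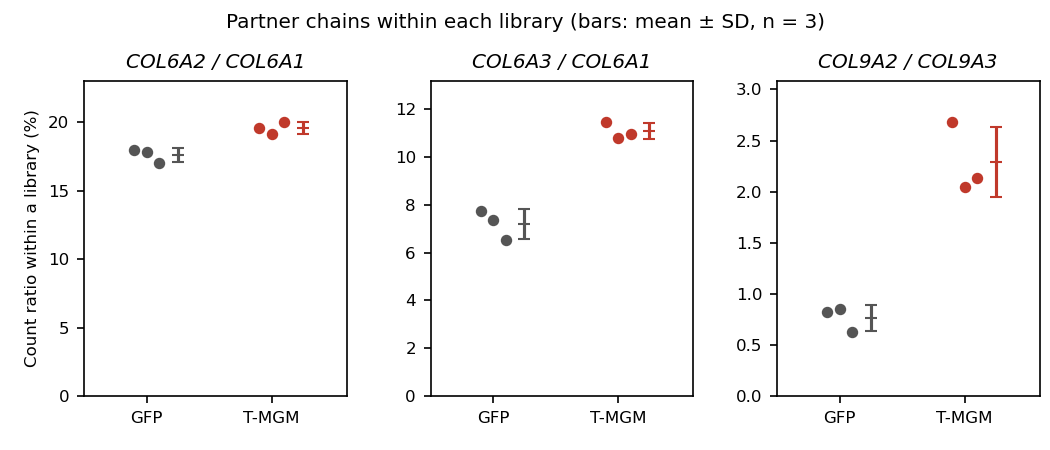
Ratio of counts of partner chains within each library, in percent, for COL6A2 over COL6A1, COL6A3 over COL6A1 and COL9A2 over COL9A3; points are libraries in replicate order, grey for GFP and red for T-MGM, with mean ± SD (n = 3) beside them and axes from 0. The T-MGM libraries lie above the GFP libraries in all 3 panels, by the widest factor for COL9A2 over COL9A3 (0.766% against 2.29%).

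Type IX collagen, a heterotrimer that sits on the surface of cartilage fibrils, had fold changes that differed between its chains. COL9A3 (ENSG00000092758.17; chromosome 20, 62816244 to 62841159, plus strand) had 5961, 5982 and 5882 normalized counts in GFP against 7454, 7767 and 7305 in T-MGM, a log2 fold change of 0.34 (95% limits 0.29 to 0.39; DESeq2 adjusted p = 3.84e-37). It was 0.15 with the GC and length correction (adjusted p = 1.27e-08) and 0.16 with limma on log2(TPM + 1) (adjusted p = 0.0205). COL9A2 (ENSG00000049089.15; chromosome 1, 40300489 to 40317813, minus strand) had 49.2, 50.9 and 36.6 in GFP against 199.8, 159 and 156 in T-MGM, a log2 fold change of 1.91 (1.48 to 2.34; adjusted p = 3.1e-17). COL9A1 had 21.6, 12.99 and 24.0 in GFP against 14.6, 20.5 and 8.86 in T-MGM, where the groups overlapped, at a log2 fold change of -0.43 (-1.44 to 0.58; adjusted p = 0.584). The most abundant chain had the smaller fold change of the 2 that passed, and the counts of COL9A2 relative to COL9A3 went from 0.766% ± 0.126 to 2.29% ± 0.344 (2.99-fold; exact permutation p = 0.1). COL9A3 remained far above its partners: their levels were 96.6 TPM for COL9A3 against 0.497 TPM for COL9A2 and 0.193 TPM for COL9A1 in GFP, and 108, 1.39 and 0.133 TPM in T-MGM. Exons of COL9A3 overlap those of TCFL5 on the opposite strand in the annotation, and the labels name a kit without strand information while the methods name a strand-specific one, so reads of the overlap may be shared. The 71 genes within 10 Mb of COL9A3 had a median log2 fold change of -0.22.

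COL12A1 had the largest rise among the chains with a mean above 100 normalized counts. It encodes a FACIT chain that binds type I fibrils in tendon, ligament and stretched connective tissue. COL12A1 (ENSG00000111799.21; chromosome 6, 75084326 to 75206267, minus strand) had 25.2, 31.4 and 17.1 normalized counts in GFP against 179, 205 and 207 in T-MGM. The groups were far apart, with a 7.996-fold difference (95% limits 5.73 to 11.2; log2 2.999; DESeq2 adjusted p = 7.6e-33). In TPM the same chain was at 0.16, 0.27 and 0.05 in GFP against 0.71, 0.43 and 0.88 in T-MGM, also without overlap, and its level stayed below 1 TPM in every library.

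COL13A1, a transmembrane collagen of cell adhesion sites and the neuromuscular junction, had 31.2, 30.3 and 13.7 normalized counts in GFP against 111, 97.6 and 95.2 in T-MGM. This was a 4.04-fold difference without overlap (95% limits 2.71 to 6.02; DESeq2 adjusted p = 6.18e-11). COL13A1 (ENSG00000197467.14) lies on chromosome 10, 69801880 to 69964275, plus strand. COL25A1, another transmembrane chain, had raw counts of 9, 7 and 7 in GFP against 33, 18 and 14 in T-MGM. It did not pass (log2 fold change 1.13, 95% limits -0.04 to 2.30, DESeq2 adjusted p = 0.131). All 3 T-MGM libraries lay above GFP in raw counts and in TPM. In normalized counts the groups overlapped, with 10.3 in T-MGM replicate 3 against 10.8 in GFP replicate 1.

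COL8A1, a short chain of the hexagonal network type VIII collagen known from vessel wall and cornea, was near the limit of detection in GFP, with raw counts of 4, 1 and 1. In T-MGM its raw counts were 12, 21 and 35, all above GFP. Summed over libraries, 6 counts in GFP and 68 in T-MGM gave a ratio of 8.58 after scaling for depth (exact 95% counting interval 3.75 to 24.2), and the fitted log2 fold change was 3.06 (1.43 to 4.69; DESeq2 adjusted p = 9.36e-04). Counting intervals cover counting error only, since reads are not independent molecules. Leaving out a library gave log2 fold changes of 2.704 to 4.11, the highest without GFP replicate 1. Its TPM of 0.03, 0.01 and 0.05 in GFP against 0.04, 0.36 and 0.11 in T-MGM overlapped.

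COL1A1, the major chain of the type I collagen of dermis and bone, rose from a very low level. Its raw counts were 16, 29 and 21 in GFP against 64, 58 and 82 in T-MGM, a log2 fold change of 1.23 (95% limits 0.59 to 1.87; DESeq2 adjusted p = 6.08e-04). Its TPM were 0.09, 0.31 and 0.11 in GFP against 0.37, 0.17 and 0.16 in T-MGM, so on that scale the groups overlapped. COL1A2, its usual partner in type I collagen, had raw counts of 1, 5 and 0 in GFP against 1, 0 and 1 in T-MGM, and COL3A1, the main chain of type III collagen, had 0, 0 and 0 against 1, 0 and 2. COL1A1 (ENSG00000108821.13) lies on chromosome 17, 50184101 to 50201632, minus strand. Its exons overlap an unnamed gene (ENSG00000249406) on the opposite strand, and its counts carry the strand uncertainty given above for COL9A3, as do those of COL19A1, COL16A1, COL4A2, COL5A3 and COL9A1.

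Of the 11 fibrillar chains 6 were expressed, and COL1A1, COL11A2 and COL27A1 were the 3 of them that rose. COL11A2, a chain of the type XI collagen that nucleates cartilage fibrils, had 361, 375 and 405 normalized counts in GFP against 506, 466 and 517 in T-MGM, without overlap (log2 fold change 0.39, 95% limits 0.20 to 0.57; DESeq2 adjusted p = 2.1e-04). With the GC and length correction it was 0.23 (adjusted p = 0.0479). The TPM of COL11A2 overlapped, at 2.21, 2.29 and 2.40 in GFP against 2.88, 2.22 and 2.62 in T-MGM. Its partner COL11A1 was not expressed by the criterion, with raw counts of 1, 3 and 3 in GFP against 11, 5 and 26 in T-MGM (DESeq2 adjusted p = 0.0561). COL27A1 had 2103, 2032 and 2027 in GFP against 2219, 2267 and 2315 in T-MGM, a log2 fold change of 0.14 (0.06 to 0.22; adjusted p = 1.55e-03) that was 0.0016 with the GC and length correction (adjusted p = 0.984) and 0.09 with scaling to total counts (adjusted p = 0.0664). COL5A3 (0.15), COL2A1 (0.18) and COL5A2 (-0.20) did not pass, with 95% limits of their log2 fold changes of -0.06 to 0.36, -1.05 to 1.40 and -1.003 to 0.60. Their groups overlapped in normalized counts, while in TPM all 3 T-MGM libraries of COL5A2 lay below GFP, at 0.11, 0.18 and 0.22 in GFP against 0.06, 0.09 and 0.05.

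The multiplexins, basement membrane zone collagens whose ends are cleaved into endostatin-like fragments, moved in opposite directions. COL18A1 had 239.8, 259 and 239 normalized counts in GFP against 359, 385 and 284 in T-MGM, a log2 fold change of 0.48 (95% limits 0.22 to 0.73; DESeq2 adjusted p = 8.61e-04), which was 0.29 and did not pass with the GC and length correction (adjusted p = 0.0608). The TPM of COL18A1 were 1.21, 1.62 and 1.73 in GFP against 2.52, 2.76 and 1.73 in T-MGM, so the groups met. COL15A1 had 151, 139 and 152 normalized counts in GFP against 83.9, 88.8 and 101 in T-MGM, so all 3 T-MGM libraries lay below GFP. It fell by 0.68 on the log2 scale (-1.04 to -0.33, DESeq2 adjusted p = 6.14e-04). Its TPM also did not overlap, at 0.62, 0.63 and 0.69 in GFP against 0.32, 0.31 and 0.44 in T-MGM. Exons of both genes overlap an annotated gene on the opposite strand, SLC19A1 for COL18A1 and ENSG00000270412 for COL15A1.

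Of the 6 type IV genes, which encode the scaffold of basement membranes, 2 were expressed, and neither passed the test. COL4A1 had 83.9, 86.6 and 89.1 normalized counts in GFP against 67.5, 81.95 and 59.8 in T-MGM, so the T-MGM libraries lay lower without overlap (log2 fold change -0.32, 95% limits -0.76 to 0.12; DESeq2 adjusted p = 0.293). COL4A2, transcribed from the same region in the opposite direction, had raw counts of 11, 7 and 13 in GFP against 7, 11 and 11 in T-MGM (-0.50, -1.77 to 0.78; adjusted p = 0.618). COL4A3 had raw counts of 3, 0 and 7 in GFP against 0, 0 and 0 in T-MGM, and DESeq2 left its adjusted p undefined.

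Among the other FACIT chains, COL19A1 had 2889, 2950.4 and 2950.3 normalized counts in GFP against 3121, 2972 and 3054 in T-MGM. The groups did not overlap, but the log2 fold change was 0.06 (95% limits -0.01 to 0.13; DESeq2 adjusted p = 0.198), and with the GC and length correction it was 0.16 (adjusted p = 1.79e-05). COL16A1, a chain of fibril and cell contacts, ranged from 67.4 to 95.3 normalized counts in GFP and from 73.8 to 92.7 in T-MGM (log2 fold change -0.05; adjusted p = 0.909), while its TPM were 1.11, 1.11 and 0.53 against 0.51, 0.51 and 0.45. The anchoring fibril chain COL7A1, which ties epidermal basement membrane to dermis, had 50.4, 49.8 and 68.5 in GFP against 74.8, 74.1 and 75.3 in T-MGM. Its T-MGM libraries lay above GFP, yet it did not pass (log2 fold change 0.41, -0.08 to 0.90; adjusted p = 0.201).

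The other 21 chains did not meet the expression criterion, and their highest raw count was 26, in COL11A1. No chain was at 0 in every library, and 7 had at most 3 counts in each. DESeq2 gave an adjusted p to 8 of the 21. COL24A1, a fibrillar chain of developing bone and cornea, was the one that passed, with raw counts of 10, 3 and 9 in GFP against 1, 0 and 3 in T-MGM (log2 fold change -2.94, 95% limits -5.27 to -0.61; adjusted p = 0.0368). Its adjusted p was 0.0724 with edgeR and 0.062 without independent filtering; leaving out T-MGM replicate 1, 2 or 3 gave 0.0965, 0.117 and 0.0515, with log2 fold changes of -2.83, -2.41 and -4.17. COL24A1 passed in 4 of the 10 alternative fits that gave it an adjusted p. Over all tested genes 1.36% were called lower. COL5A1, the usual partner of COL5A2, had raw counts of 9, 16 and 5 in GFP against 4, 5 and 7 in T-MGM (adjusted p = 0.188). COL17A1, the transmembrane collagen of keratinocyte hemidesmosomes, had 2, 0 and 8 against 0, 0 and 0, with an undefined adjusted p. The remaining unexpressed chains were COL10A1, COL14A1, COL20A1, COL21A1, COL22A1, COL23A1, COL26A1, COL28A1, COL4A4, COL4A5, COL4A6 and COL8A2, none of which passed. At this depth, 3 counts correspond to 0.0506 to 0.0856 CPM (counts scaled to the library total), the level that a count of 0 still allows.

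Upstream sequences are shown for the called chains with an entry and for COL6A2, the partner of COL6A3. The called chains include COL24A1, which has 2 entries and passed as lower from few counts, though not in every fit. RefSeq promoters (GRCh38.p14) were given for 32 of the 44 chains in 44 entries, 22 of them for 17 expressed chains; COL6A1, COL9A3, COL1A1, COL8A1, COL2A1 and COL5A2 had none among the expressed. The 250 bases before the start site were searched on both strands for CACGTG and CATGTG (E-boxes of the kind MITF binds), TGCTGA (the core of the MAF recognition element), TGAGTCA (the AP-1 site) and TGACGTCA (the cyclic AMP response element), and, after these had been counted, for GGGCGG (the GC box) and TATAAA (the TATA box). The letters found are in capitals and read 5′ to 3′ on the gene's strand, and CCGCCC is GGGCGG on the other strand. None of these words contains another, but 2 GC boxes of COL9A2 share a base.
COL12A1: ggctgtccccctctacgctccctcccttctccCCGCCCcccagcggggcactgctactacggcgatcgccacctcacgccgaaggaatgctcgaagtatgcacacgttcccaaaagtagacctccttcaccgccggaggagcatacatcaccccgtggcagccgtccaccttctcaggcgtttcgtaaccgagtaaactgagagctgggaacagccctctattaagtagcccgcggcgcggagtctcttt
COL13A1: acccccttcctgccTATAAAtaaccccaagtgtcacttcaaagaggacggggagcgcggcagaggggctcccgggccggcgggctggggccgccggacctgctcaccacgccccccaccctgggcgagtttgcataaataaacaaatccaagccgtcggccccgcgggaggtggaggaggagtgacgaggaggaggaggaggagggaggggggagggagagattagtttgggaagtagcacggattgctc
COL9A2: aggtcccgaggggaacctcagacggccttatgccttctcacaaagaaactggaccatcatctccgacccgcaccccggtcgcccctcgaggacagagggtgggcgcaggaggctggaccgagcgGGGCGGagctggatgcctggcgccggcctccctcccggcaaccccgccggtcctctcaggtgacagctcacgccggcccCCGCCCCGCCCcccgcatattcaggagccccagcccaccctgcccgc
COL6A2: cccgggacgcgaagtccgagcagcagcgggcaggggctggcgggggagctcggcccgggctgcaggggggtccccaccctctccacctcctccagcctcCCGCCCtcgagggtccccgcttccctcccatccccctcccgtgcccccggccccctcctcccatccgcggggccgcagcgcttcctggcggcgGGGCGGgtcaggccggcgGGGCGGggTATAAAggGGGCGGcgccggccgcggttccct
COL6A3: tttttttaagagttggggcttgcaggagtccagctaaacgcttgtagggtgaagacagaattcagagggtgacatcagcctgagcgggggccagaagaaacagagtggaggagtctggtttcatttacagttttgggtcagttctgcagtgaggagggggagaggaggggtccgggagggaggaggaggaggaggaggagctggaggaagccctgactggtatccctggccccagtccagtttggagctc
COL24A1, downstream entry: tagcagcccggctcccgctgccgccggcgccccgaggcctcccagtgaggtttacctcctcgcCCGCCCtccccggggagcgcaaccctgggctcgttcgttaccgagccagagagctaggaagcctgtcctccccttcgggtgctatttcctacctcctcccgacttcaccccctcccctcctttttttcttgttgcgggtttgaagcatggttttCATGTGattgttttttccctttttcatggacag
COL24A1, upstream entry: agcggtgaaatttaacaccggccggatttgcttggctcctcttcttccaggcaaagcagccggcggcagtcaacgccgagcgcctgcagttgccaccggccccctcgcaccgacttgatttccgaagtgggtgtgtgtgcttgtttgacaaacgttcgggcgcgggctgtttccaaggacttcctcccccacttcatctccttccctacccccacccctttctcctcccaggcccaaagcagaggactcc
These windows lie at chr6:75206054-75206303 (minus strand) for COL12A1, chr10:69801656-69801905 (plus) for COL13A1, chr1:40317287-40317536 (minus) for COL9A2, chr21:46097862-46098111 (plus) for COL6A2, chr2:237414165-237414414 (minus) for COL6A3, and chr1:86156472-86156721 and chr1:86156773-86157022 (both minus) for COL24A1.

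Of the 22 entries of expressed chains, 0 held CACGTG, 0 held CATGTG, 0 held TGAGTCA and 0 held TGACGTCA, where 6.34%, 9.42%, 4.2% and 1.65% of all 35116 promoters held them. Over all 44 entries CATGTG was in 2, one each for COL24A1 and COL10A1, neither expressed by the criterion. In COL24A1 it stood 33 bases before the start site of the downstream entry, which also held a GC box, and the other entry held none of the words. TGCTGA was in 3 of the 22 (COL5A3, COL7A1 and COL9A1), against 14% of all promoters. GGGCGG was in 14 of the 22 against 42.6%, and TATAAA in 4 against 10.7%. COL6A2 had 4 GC boxes and a TATA box 32 bases before its start site, COL9A2 had 3 GC boxes, COL12A1 had 1, COL13A1 had TATAAA 236 bases before its start site, and COL6A3 had none of the words. A match or its lack describes these letters in this window and says nothing of binding.

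Genes that modify, fold, export, trim and cross-link collagen chains were examined next, from 40 genes listed by general knowledge. Of the 36 tested, 20 rose, 6 fell and 10 did not pass, and 4 were called, all higher. Their median log2 fold change was 0.28 against -0.00 over all tested genes. Of all tested genes, which include genes of every level, 19.2% passed as higher, 19.2% as lower and 3.26% were called higher. On the TPM scale the split of the listed genes was nearer to even, with 10 higher and 8 lower in limma on log2(TPM + 1), 10 and 9 on log2(TPM + 0.1), and 11 and 4 on log2(TPM + 1) without a filter. In those fits the median log2 fold change over genes with a mean of 50 or more normalized counts was -0.13, -0.15 and -0.13. In proline hydroxylation, which stabilizes the triple helix, 8 of 9 tested genes rose and P3H1 did not pass (log2 fold change -0.00). P3H2, the prolyl 3-hydroxylase of basement membrane and other collagens, went from 78.5 ± 27.3 to 409 ± 19.9 normalized counts (log2 fold change 2.38, 95% limits 2.06 to 2.699; DESeq2 adjusted p = 4.54e-46). The prolyl 4-hydroxylase subunits P4HA1, P4HA2 and P4HB rose by log2 0.34, 0.47 and 0.28.

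In lysine modification, 4 of 6 genes rose, led by PLOD2, the telopeptide lysyl hydroxylase, at 4629 ± 21.7 in GFP against 7637 ± 118 in T-MGM (log2 0.72; DESeq2 adjusted p = 5.74e-182). In cross-linking, LOXL2, a secreted lysyl oxidase, went from 1257 ± 35.7 to 2963 ± 60.7 normalized counts (log2 1.24, 95% limits 1.152 to 1.32; adjusted p = 6.37e-177), and LOXL3 rose by 0.34, while LOX itself had at most 20 raw counts in any library and did not pass. In propeptide processing, ADAMTS3, a procollagen N-proteinase, went from 15.8 ± 4.36 to 125.5 ± 14.96 (log2 2.98, 2.38 to 3.58; adjusted p = 4.62e-21), and BMP1, FURIN and PCOLCE2 rose by 0.38, 0.55 and 0.49. PCOLCE, an enhancer of C-propeptide cleavage, fell by 0.76 on the log2 scale (adjusted p = 2.5e-11).

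The chaperone and export genes were the group with more members lower than higher. Of 9 tested, 5 fell (TMEM38B, FKBP14, MIA2, MIA3 and SEC23A, by log2 -0.50, -0.45, -0.28, -0.26 and -0.09), and 2 rose. MIA3, also known as TANGO1, loads procollagen into transport carriers, and TMEM38B is an endoplasmic reticulum cation channel needed for normal type I collagen. SERPINH1, the collagen chaperone HSP47, rose by log2 0.10 in normalized counts (DESeq2 adjusted p = 6.09e-09). Its TPM were lower in T-MGM without overlap, at 179.5, 175.5 and 179.7 in GFP against 171, 173.4 and 166.2 in T-MGM. On that scale the median over genes with a mean of 50 or more normalized counts was log2 -0.13 (limma on log2(TPM + 1)). CREB3L1, a transcription factor that activates collagen genes, had raw counts of 5, 4 and 8 in GFP against 33, 18 and 23 in T-MGM (log2 1.73, 95% limits 0.55 to 2.92; DESeq2 adjusted p = 0.0129). Without GFP replicate 2 the CREB3L1 adjusted p was 0.0715, and without T-MGM replicate 1 it was 0.15.

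**Figure D4:**
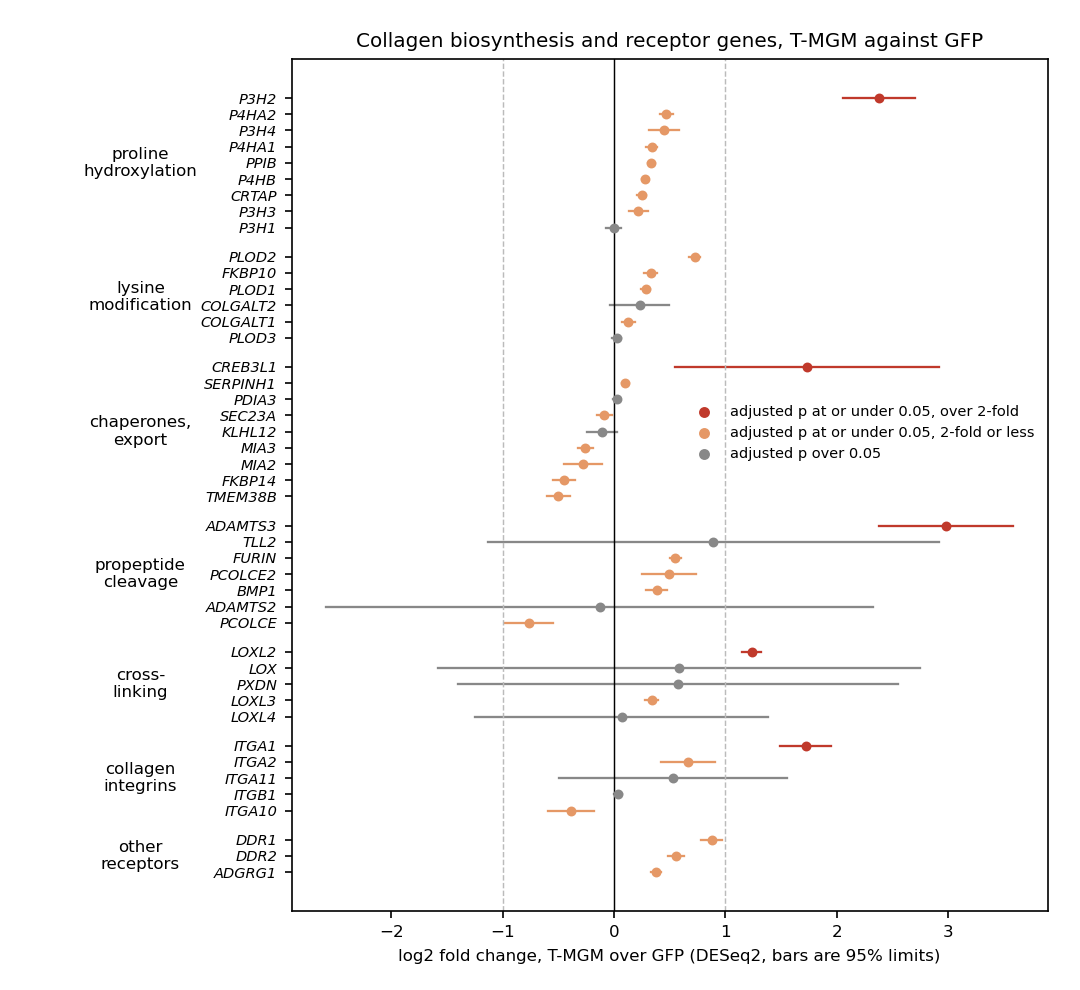
Log2 fold change of T-MGM over GFP with 95% limits (DESeq2, n = 3 libraries per group) for the 36 collagen biosynthesis genes and 8 collagen receptor genes tested, grouped by role; red marks an adjusted p at or under 0.05 with more than 2-fold change, orange an adjusted p at or under 0.05 with 2-fold or less and grey an adjusted p over 0.05. P3H2, CREB3L1, ADAMTS3, LOXL2 and ITGA1 are the red points, and 5 of the 9 chaperone and export genes lie left of zero in orange.

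Receptors that bind collagen were taken from a list of 11 genes, of which 10 were in the table (MRC2 was not analysed here) and 8 were tested. Of these, 5 rose, 1 fell and 1 was called, higher, with a median log2 fold change of 0.54, against 19.2% higher, 19.2% lower, 3.26% called higher and a median of -0.00 over all tested genes. That background again includes genes of every level. ITGA1, the α1 integrin subunit that prefers type IV and network collagens, went from 204 ± 29.3 to 674 ± 82.8 normalized counts (log2 1.72, 95% limits 1.49 to 1.95; DESeq2 adjusted p = 4.63e-47). ITGA2, the α2 subunit that prefers fibrillar collagen, rose by 0.66, and ITGA10 fell by 0.39 on the log2 scale. Their shared partner ITGB1 had a log2 fold change of 0.04 (adjusted p = 0.129). The discoidin domain receptor tyrosine kinases DDR1 and DDR2 rose by 0.87 and 0.55, and ADGRG1, an adhesion receptor that binds type III collagen, rose by 0.38.

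Because collagen chains are also made by other cell types, markers of those cells were measured in the same libraries. Of 7 fibroblast markers, 3 were expressed (LUM, PDGFRA and PDGFRB), and these rose by log2 0.77, 1.497 and 1.37 (DESeq2 adjusted p = 1.47e-13, 4.57e-11 and 0.0482). For PDGFRB the groups overlapped, at 13.2, 16.2 and 2.28 normalized counts in GFP against 14.6, 24.4 and 42.8 in T-MGM. The summed level of the 7 was 4.17 to 4.85 TPM in GFP against 5.17 to 7.18 TPM in T-MGM, so it moved with the collagen chains, and its part in their rise was not tested. The fibroblast marker POSTN had at most 3 counts in every library, and DCN, FBLN1 and THY1 had raw counts of 4 to 10, 1 to 5 and 0 to 7. COL1A2 and COL3A1, both abundant in fibroblasts, had at most 5. Endothelial markers summed to 0.22 to 0.36 TPM in GFP against 0.18 to 0.28 TPM in T-MGM, with 2 of 4 expressed (PECAM1 and VWF) and neither passing, and none of the 4 keratinocyte markers was expressed. Among the melanocyte markers, DCT, MLANA and TYR fell as given above. PMEL, SOX10 and MITF were higher by 0.11 or less on the log2 scale in normalized counts. Their mean TPM were lower in T-MGM, at 252 against 237 for PMEL, 416 against 403 for SOX10 and 138 against 133 for MITF. On that scale genes with a mean of 50 or more normalized counts also had a median below zero, at log2 -0.13 (limma on log2(TPM + 1)). The SOX10 groups overlapped in TPM.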

How the data were processed

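RNA from 6 WM164 libraries was sequenced. Per the submitters' processing notes and the methods, the authors trimmed reads with cutadapt 1.8.1, discarded pairs with an end under 25 bases, aligned to GRCh38 with STAR 2.7.7a and ran featureCounts on uniquely aligned pairs, and the deposited counts are whole numbers, not normalized, with replicates apart. The deposited TPM values carry abundance per length and depth, rounded to 2 decimals, and the notes also name RSEM 1.3.0, so counts and TPM can treat shared reads and isoforms differently. The annotation release is not given in the sources used here. Every value column was mapped to a sample.

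The deposited counts of all 58870 genes were fitted in DESeq2 1.42.0 (R 4.3.3), which the study's methods name with a negative binomial model. Settings chosen here were group as the term, size factors from medians of ratios, unshrunken fold changes and 2-sided Wald tests. Independent filtering was at 0.05, with Benjamini-Hochberg adjustment over 19135 genes. Called means an adjusted p at or under 0.05 and more than 2-fold. Fold changes are T-MGM over GFP; normalized counts are counts over the size factor; log2 limits are 95% Wald limits. Replicate libraries differed by more than sampling noise (chi-square per degree of freedom 2.84 to 5.23), so all 6 were kept. Gene positions are from GENCODE release 44, which holds 99.4% of the gene identifiers. No library was left out of the results.

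The chains and the companion lists were chosen with earlier results of these data known. Every chain is named; values in every library are given for chains that passed, their partner chains and the 5 highest in TPM; companion genes are named where called and otherwise up to 5 by absolute Wald statistic, beside others chosen after their values were seen, as were the markers' single values. Alternatives were edgeR 4.0.16 (quasi-likelihood, TMM), other scalings and filters, a replicate block, each replicate left out, a GC and length correction, and limma 3.58.1 on log2 of TPM plus 1 or 0.1. The fits were tested on simulated data. Other genes' neighbours, low-count intervals and the GC box and TATA box searches were added after the data were examined.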

Additional observations from a re-analysis of the deposited data

How the results depend on the processing

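Using edgeR, TMM factors, total-count scaling, either count minimum, no independent filtering, the GC and length correction or any replicate left out, 5 to 7 of the 44 chains were called (main value 7, COL24A1 included) and 12 to 14 passed the adjusted p (main value 14). The called chains were not always the same. Without T-MGM replicate 2, 7 were called higher and 0 lower, against 6 and 1 in the main fit. The limma fits on TPM called fewer: 0 chains with log2(TPM + 1), 3 with log2(TPM + 0.1) and 0 with log2(TPM + 1) and no filter, where 7, 6 and 4 passed the adjusted p. With limma at an unadjusted p under 0.05 these fits had 9, 9 and 11 chains (0, 3 and 0 over 2-fold), among 15, 15 and 43 tested; edgeR called 6. A pseudocount of 1 TPM compresses chains below 1 TPM, and in those fits the median log2 fold change over genes with a mean of 50 or more normalized counts was -0.13, -0.15 and -0.13. Of the named genes, 4 and 5 of 23 and 13 of 34 no longer passed the adjusted p there, among them COL11A2, COL18A1 and COL27A1 in each fit. The limma fit without a filter also lost the called chains COL12A1 (adjusted p = 0.0516), COL9A2 (0.0571), COL8A1 (0.396) and COL1A1 (0.663). COL9A3 was lost there as well (0.0615), while the called chains COL13A1 and COL6A3 still passed.

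Biosynthesis genes called numbered 2 with 10 counts in every library and 2, 2 and 2 in the limma fits, against 4, and those past the adjusted p numbered 15 in the limma fit without a filter, against 26. The receptor call, 1 gene, was 0 in both limma fits with a pseudocount of 1 (7 and 7 receptors at an unadjusted p under 0.05, 0 over 2-fold). Expressed chains numbered 19 with 10 counts in every library, 13 with 100 counts in 3 libraries and 11 with 1 TPM in 3 libraries, against 23.

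Signs changed for chains that did not pass: COL16A1 ranged from -0.18 to 0.052 and COL2A1 from -0.12 to 0.50 with a replicate left out, COL2A1 was -0.11 in the limma fit without a filter, COL19A1 was -0.093, -0.10 and -0.093 in the limma fits, and COL5A3 was -0.013 with the GC and length correction. The cause was not tested.

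The replicate block left 6 chains called and 13 past the adjusted p. Same-numbered libraries did not deviate together (correlations -0.001, -0.038 and 0.044 across genes). Differently numbered libraries ranged from -0.087 to 0.084. No shared effect of the replicate number was thus visible, which does not show how the libraries were prepared. Depth limits chains near 10 counts or fewer in a group, as for COL24A1 in T-MGM and COL8A1 in GFP.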
